A study of Mus musculus with 18 samples.

Results

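The keratin genes of the mouse lie in a pair of clusters, and DNA methylation was read in both across mammary epithelial cells of different kinds and reproductive stages. The type II window covers 700 kb of chromosome 15 (chr15:101170001-101870000, build mm9), with the type II keratins, among them Krt5 and Krt8, and the neighbouring type I gene Krt18. The type I window covers 1150 kb of chromosome 11 (chr11:98980001-100130000) and holds the other type I keratins, among them Krt14. Members are all CpGs inside these windows with at least 5 reads: 1282 CpGs had this depth in 1 or more libraries, of 1476285 in the whole data set. Of these, 604 had at least 5 reads in all 18 libraries (249 in the type II window and 355 in the type I window, of 711980 shared CpGs in all). The rule used position and depth and no methylation level, though the windows were picked with earlier results of these data known.

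The libraries are reduced representation bisulfite libraries of C57BL/6 female mice, a method that cuts DNA at CCGG with the enzyme MspI and so reads mainly CpG-rich sequence. Cells were purified from digested mammary glands and labelled as stem, luminal progenitor or mature luminal cells. For each of these 3 cell types there was 1 library from virgin mice at week 3 and at week 9, 1 from pregnancy at each of day 10, day 16 and day 19, and 1 from retired breeders, whose age and time since the last litter are not stated. Stages therefore served as replicates (2 virgin, 3 pregnant and 1 retired library per cell type), whether each library is from separate, shared or pooled animals is not stated, and the p-values measure only the spread between these libraries. All mice share 1 strain and carry no transgene or treatment named in the labels. No transcript was measured, so the cell labels could not be set against keratin RNA or protein.

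Keratins are the intermediate filament proteins of epithelia, and each filament pairs a type I with a type II chain. In the mammary gland, Krt5 and Krt14 pair in basal and myoepithelial cells, the compartment that holds mammary stem cell activity, whereas Krt8 and Krt18 pair in luminal cells. Most other genes of the clusters make keratins of skin, hair follicle, tongue or other stratified epithelia, and keratin-associated protein genes of hair lie among the type I genes. DNA methylation at a CpG-rich promoter usually goes with silence of the gene, while promoters poor in CpGs can be silent or active at many methylation levels.

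The 4 promoters of the keratin pairs used to tell basal from luminal cells are shown first, because their CpG content sets what the method can read. Each run holds the 250 bases before the transcription start in RefSeq (build GRCm38.p6), 5′ to 3′ in the direction of the gene, with CpGs in capitals. Krt18 lies on the plus strand and Krt8, Krt5 and Krt14 on the minus strand.
Krt18: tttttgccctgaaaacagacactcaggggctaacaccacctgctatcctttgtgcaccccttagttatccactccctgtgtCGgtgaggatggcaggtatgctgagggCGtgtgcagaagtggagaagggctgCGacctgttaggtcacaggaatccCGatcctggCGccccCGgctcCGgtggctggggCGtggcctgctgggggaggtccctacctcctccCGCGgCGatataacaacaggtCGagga
Krt8: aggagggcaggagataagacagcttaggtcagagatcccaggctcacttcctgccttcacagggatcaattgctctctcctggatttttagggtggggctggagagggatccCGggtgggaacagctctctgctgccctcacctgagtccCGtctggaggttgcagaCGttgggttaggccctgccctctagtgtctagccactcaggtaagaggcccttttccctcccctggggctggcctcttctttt
Krt5: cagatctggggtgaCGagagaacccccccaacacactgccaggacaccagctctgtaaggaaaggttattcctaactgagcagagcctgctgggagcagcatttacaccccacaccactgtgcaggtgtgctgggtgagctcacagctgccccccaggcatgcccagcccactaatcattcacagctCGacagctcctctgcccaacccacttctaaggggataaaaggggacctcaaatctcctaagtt
Krt14: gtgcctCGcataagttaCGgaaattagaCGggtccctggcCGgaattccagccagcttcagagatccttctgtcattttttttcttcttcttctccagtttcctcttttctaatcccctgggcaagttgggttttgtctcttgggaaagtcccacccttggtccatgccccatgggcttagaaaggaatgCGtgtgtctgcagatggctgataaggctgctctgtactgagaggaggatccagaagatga

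These 250 bases hold 12 CpGs at Krt18, 5 at Krt14, 3 at Krt8 and 2 at Krt5. The MspI site CCGG, which reads the same on both strands, occurs 2 times at Krt18, 1 time each at Krt8 and Krt14, and not in these letters at Krt5. Of 53 keratin genes listed for the windows, 35 have a promoter in the RefSeq table, with 36 promoters in all. CCGG stands in 15 of the 36 promoters of 300 bases (41.7%), against 52.8% of all 32851 promoters of the same length. The keratin promoters hold a median of 5 CpGs (range 2 to 21), against a median of 7 over the table.

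A gene could be placed on mm9 only from the files themselves, where the spacing of the CpGs in its promoter matched listed CpGs at 1 place of its window. At least 4 CpGs had to coincide, so promoters with fewer CpGs could not be placed whatever their coverage. By this rule only Krt18 was placed with measured CpGs standing next to each other beside a CCGG. Its 250 bases lie at chr15:101858397-101858646 on the plus strand, and 5 of their CpGs were read. Of 16827 promoters from other chromosomes tried in the type II window, 0.0119% found a place with 5 or more CpGs. Eif4b and Klhl11, which are no keratins, also met the spacing rule, but their measured CpGs were not next to each other beside a CCGG, and no value is given for them. The other tiles below are named by coordinate, since no mm9 annotation was at hand.

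At the 5 Krt18 promoter CpGs that were read, 0 or 1 read was methylated. At the CpGs 93, 84, 78 and 60 bases before the start, 0 of 148, 143, 153 and 181 reads over all libraries were methylated, which allows levels of up to 2.03%, 2.10%, 1.96% and 1.66%. At the CpG 72 bases before the start, 1 of 210 reads was methylated, in the week 9 virgin progenitor library. These CpGs had 5 reads or more in 12 to 14 libraries, which include stem, progenitor and mature cells, so they are outside the 604 shared CpGs. Reads may hold PCR copies of 1 molecule and neighbouring CpGs share reads, so these limits cover counting error only. The low level ran on into the gene: the tile chr15:101858001-101859000, whose 3 shared CpGs lie 198 to 213 bases after the start, stayed between 0% and 2.90% in all 18 libraries.

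Inside Krt18, each cell type's mean at the shared CpGs from 1209 bases after the start on was above its means nearer to the start. The gene is 3811 bases long in the RefSeq table. The next tile, chr15:101859001-101860000, covers the bases 354 to 1353 after the start with 7 shared CpGs. Its stem libraries had 30.4% and 7.24% methylation at week 3 and week 9, 41.6%, 35.0% and 38.2% at day 10, day 16 and day 19, and 29.4% in retired mice. Progenitor libraries ranged from 11.3% to 39.2% with a median of 14.9%, and mature libraries from 1.49% to 26.7% with a median of 8.95%. The means were 30.3% ± 12.2 in stem, 19.1% ± 10.5 in progenitor and 12.5% ± 9.73 in mature cells (SD, n = 6 each). Stem lay above progenitor cells in 4 of 6 stages and above mature cells in 5 of 6, and the groups overlapped. The difference of 17.8 points between stem and mature cells did not pass the test after adjustment (adjusted p = 0.422).

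Single CpGs inside Krt18 differed in level. At 375 bases after the start all cell types were low, with means of 5.01% in stem, 8.10% in progenitor and 8.74% in mature cells. At 1315 bases the means were 50.9% ± 17.9, 23.5% ± 9.03 and 19.4% ± 13.5, and at 1770 bases 82.3% ± 16.3, 50.8% ± 26.3 and 49.6% ± 18.8 (SD, n = 6 each). At the last shared CpG, 1858 bases after the start, the means were 68.5% ± 27.4, 63.9% ± 13.4 and 49.6% ± 22.4. The CpGs were not tested one by one, and these tiles near Krt18 were singled out by position after their values were seen.

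**Figure D1:**
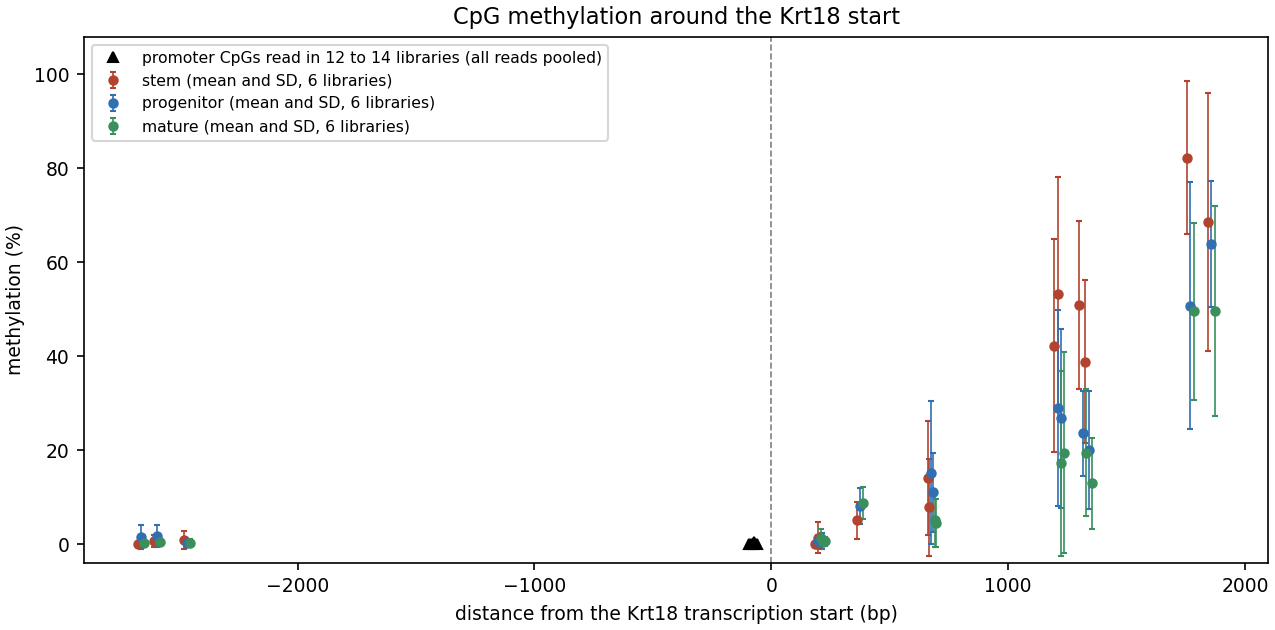
Methylation of CpGs (percent, vertical axis) against their distance from the Krt18 transcription start (bp, horizontal axis); points and bars are the mean and SD of 6 libraries of each cell type, shifted slightly sideways for display, and black triangles are promoter CpGs with the reads of all libraries pooled. Levels are near 0% up to 213 bases after the start and above that farther inside the gene, where the stem means at 1315 and 1770 bases (50.9% and 82.3%) stand above both luminal means.

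A keratin-associated gene was placed by the same spacing with a second rule added after the data were seen: Krtap17-1, a hair keratin-associated protein gene on the minus strand. The 250 bases before its start lie at chr11:99855309-99855558. Of 21 Krtap promoters on chromosome 11, 3 hold CCGG. With its 4 measured CpGs the placement is weaker than that of Krt18, as 0.608% of promoters from other chromosomes found such a place. The CpG 58 bases before the start had 0% to 3.85% methylation in the 18 libraries, and the 3 CpGs 21 to 45 bases after it had 0% to 17.6%. The tile around it, chr11:99855001-99856000, was highest in the stem libraries of day 19 (9.42%) and week 3 (9.23%) and in the week 3 mature library (8.36%). The 6 stem libraries averaged 5.50% there, and the progenitor libraries did not exceed 2.54%. The difference of 4.45 points between stem and progenitor cells had an adjusted p of 0.366 and was under the 10 points required of a call.

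Across whole windows the level hardly moved. Mean CpG methylation over the shared CpGs was 60.2% ± 0.758 in the type II window and 67.0% ± 0.904 in the type I window (SD, n = 18), against 50.4% ± 0.522 over all shared CpGs. The lowest library of the type II window was day 16 pregnant stem with 58.6% and the highest week 9 virgin stem with 61.5%. In the type I window the same libraries were the lowest (65.0%) and the highest (68.6%). The virgin stem libraries averaged 61.1% and 68.2% in the type II and type I windows, and the pregnant stem libraries 59.4% and 66.0%, without overlap. Over all shared CpGs the means moved the same way, from 50.7% to 49.6%, also without overlap. Virgin stem libraries had 50.4% and 50.9% there, and pregnant ones 49.2% to 50.1%. No test was made of these window means. Depth moved with the stage: the median reads per CpG of the windows were 48 to 62 in virgin and 22 to 44 in pregnant stem libraries, with 14 and 15 in the retired mature library as the fewest.

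Low methylation was rarer in the keratin windows than over the data set, and middle levels were more frequent. By the mean over 18 libraries, 21.9% of the 604 keratin CpGs were under 20%, 24.5% between 20% and 80%, and 53.6% over 80%. The corresponding shares of all shared CpGs were 39.7%, 16.7% and 43.7%. Middle levels were held by 77 of 249 CpGs in the type II window and 71 of 355 in the type I window. Reads were then summed in tiles of 1000 bp with at least 3 shared CpGs. This gave 82 keratin tiles (40 type II and 42 type I, of 77064 in all) that hold 419 of the 604 CpGs. The other 185 CpGs were left out of the tests.

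**Figure D2:**
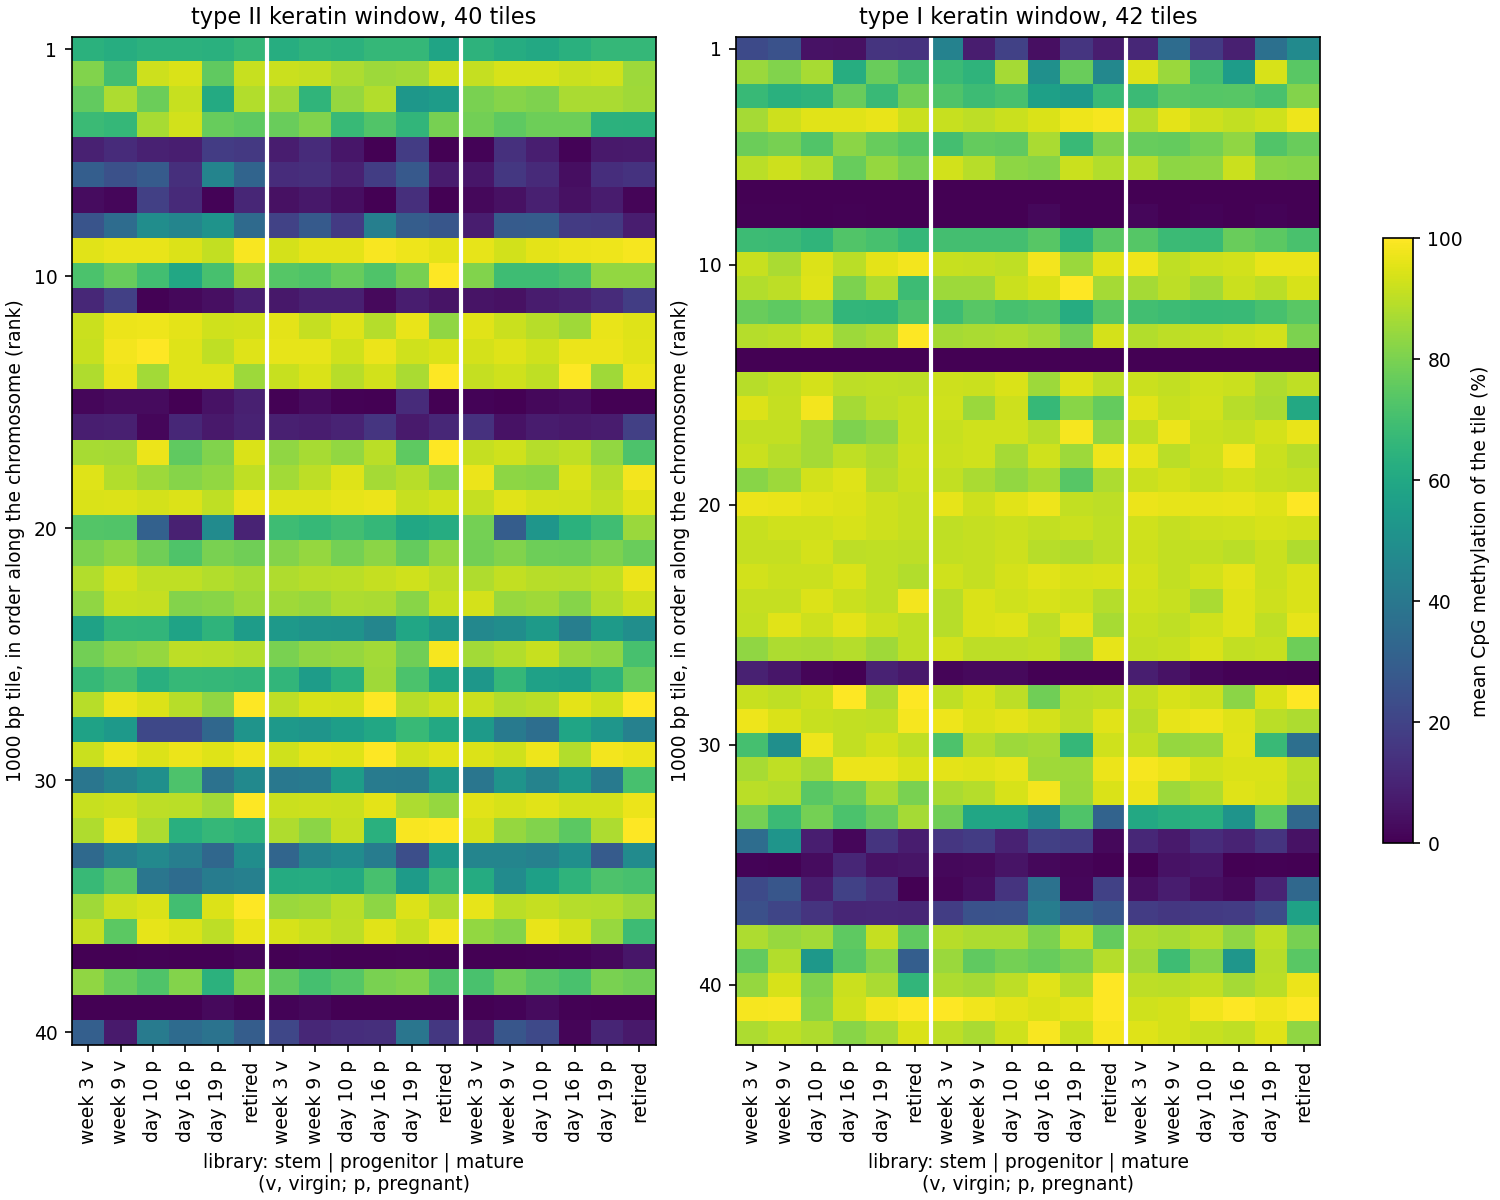
Mean CpG methylation (colour, 0% to 100%) of the 40 type II and 42 type I keratin tiles, as rows ordered along the chromosome, in 18 libraries as columns; white lines separate stem, progenitor and mature libraries, and v and p stand for virgin and pregnant. Rows differ in their level, and a few rows change within the stem columns between virgin and pregnant libraries.

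Dense CpG stretches of the type I window lay at the extremes in every library. The tile chr11:99091001-99092000 with 21 CpGs had 0% to 0.207% methylation, and its neighbour chr11:99092001-99093000 with 10 CpGs had 0% to 2.01%. A tile with 9 CpGs at chr11:99247001-99248000, chosen after its values were seen, stayed between 0% and 0.357%. By contrast, the tiles with 16, 21 and 13 CpGs at chr11:99686001-99687000, chr11:99687001-99688000 and chr11:99750001-99751000 were methylated throughout, with means of 92.2%, 90.7% and 92.9%. Their ranges over the 18 libraries were 3.78, 5.49 and 7.48 points.

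The densest tiles of the type II window held fewer CpGs. At chr15:101833001-101834000, 9 CpGs averaged 0.801% methylation. This tile lies 24647 to 25646 bases before the Krt18 start, and the nearest protein-coding gene before Krt18 in the RefSeq order is Krt8. The tile chr15:101486001-101487000 with 9 CpGs averaged 90.2%, chr15:101375001-101376000 with 7 CpGs 94.1%, and chr15:101420001-101421000 with 7 CpGs 79.6%. None of these tiles was called in any comparison.

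Keratin tiles varied more between libraries than tiles at large, as a description with no test. The median range over the 18 libraries was 17.9 points, against 12.3 over all tiles. A range of 40 points or more was seen in 13 of 82 keratin tiles (15.9%, against 7.67% of all tiles), and a range under 10 points in 15 (18.3%, against 41.8%). Middle levels allow wider ranges than extremes, and the keratin tiles were also read less deeply, where a tile held a median of 171 reads in a library against 208. The share of either in the wider range was not tested. The widest keratin tile was chr15:101403001-101404000, with 9.25% in the day 16 pregnant stem and 84.8% in the retired mature library, where the shallowest library had 21 reads.

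Whether the stem cells differ from luminal cells in the keratin clusters was asked tile by tile, with a quasi-binomial regression on reads and adjustment over all 77064 tiles. Calls required a difference of 10 points or more and, after adjustment, p under 0.05. No keratin tile was called between stem and progenitor, stem and mature, or progenitor and mature cells, or between stem cells and the mean of both luminal types, and percent called over all tiles was 0 in each. At an unadjusted p under 0.05, 8 of 82 keratin tiles differed between stem and progenitor cells (9.34% of all tiles did), 16 between stem and mature cells (11.1%), 4 between progenitor and mature cells (5.98%), and 14 between stem cells and the luminal mean (11.4%). With limma these unadjusted counts were 10 (8.5% of all tiles), 10 (8.73%), 4 (4.61%) and 13 (9.85%), again with 0 called. The median difference over the 82 tiles was -0.03 points between stem cells and the luminal mean, against -0.13 over all tiles, and 41 keratin tiles were higher in stem cells.

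Among the tiles with a small p, more were higher in stem cells than lower, the other way round from the data set, with no test of that difference. Of the 14 keratin tiles with an unadjusted p under 0.05 between stem cells and the luminal mean, 9 were higher in stem cells and 5 lower, while over all tiles 4.17% were higher and 7.22% lower. Stem cells were the highest of the 3 cell types in all 6 stages at 3 keratin tiles (0.187% of all tiles) and the lowest in all 6 stages at 0 (0.417%). In 5 or more stages they were highest at 5 keratin tiles (1.73%) and lowest at 3 (3.88%). These counts over stages were made after the data were seen and carry no test.

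The smallest p between stem and luminal cells belonged to the tile chr15:101213001-101214000 with 3 CpGs. Its stem libraries had 29.8% and 24.7% in virgin mice, 28.6%, 13.5% and 45.1% at day 10, day 16 and day 19, and 32.1% in retired mice. Progenitor libraries lay between 7.69% and 28.0% with a median of 13.2%, and mature libraries between 3.88% and 16.1% with a median of 12.5%. Stem was above mature cells in 6 of 6 stages and above progenitor cells in 5 of 6, the exception being day 16, and the groups overlapped. The difference from the luminal mean was 16.1 points (adjusted p = 0.0895), and it was higher in stem cells at each of the 3 CpGs.

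At chr15:101243001-101244000, with 7 CpGs over 206 bases, the order was stem, progenitor, mature. Stem libraries had 25.8% and 35.5% in virgin mice, 48.9%, 45.6% and 51.2% in pregnant mice and 34.5% in retired mice, a mean of 40.3% ± 9.86. Progenitor libraries averaged 27.5% ± 9.18 and mature libraries 17.9% ± 9.26 (SD, n = 6 each). Stem cells were highest in all 6 stages, although the ranges of the groups overlapped. The difference was 22.3 points from mature cells (adjusted p = 0.107) and 17.6 points from the luminal mean (adjusted p = 0.0934). Within the tile the last 3 CpGs, 191 to 205 bases from the first, moved apart from the others, a split made after the values were seen. In stem cells they averaged 25.7%, 17.5% and 25.4% in virgin and 77.1%, 51.5% and 78.3% in pregnant libraries. The luminal libraries of all stages averaged 36.0%, 20.6% and 33.8% there, above the virgin stem means. The stem libraries of all stages averaged 63.8%, 36.1% and 64.3%. The shallowest library had 5 reads at each of these 3 CpGs.

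Other tiles also had the stem libraries on top. At chr15:101568001-101569000, named after its values were seen, stem libraries ranged from 55.4% to 66.1% and luminal libraries from 42.9% to 59.3%, with stem highest in all 6 stages and a difference of 10.4 points (adjusted p = 0.116). In the type I window, chr11:100001001-100002000 with 4 CpGs had 68.2% to 86.5% in stem, 31.8% to 78.2% in progenitor and 33.9% to 75.0% in mature libraries. Stem cells were highest there in all 6 stages, most so in retired mice with 86.5% against 31.8% and 33.9%. The difference of 18.9 points from the luminal mean had an adjusted p of 0.222. Without the week 9 virgin mature library, 2 keratin tiles were called between stem and mature cells and the same 2 between stem cells and the luminal mean: chr15:101213001-101214000 (19.1 and 16.6 points) and chr15:101243001-101244000 (24.5 and 18.6 points). The same fits called 129 (0.167%) and 304 (0.394%) of all 77064 tiles.

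**Figure D3:**
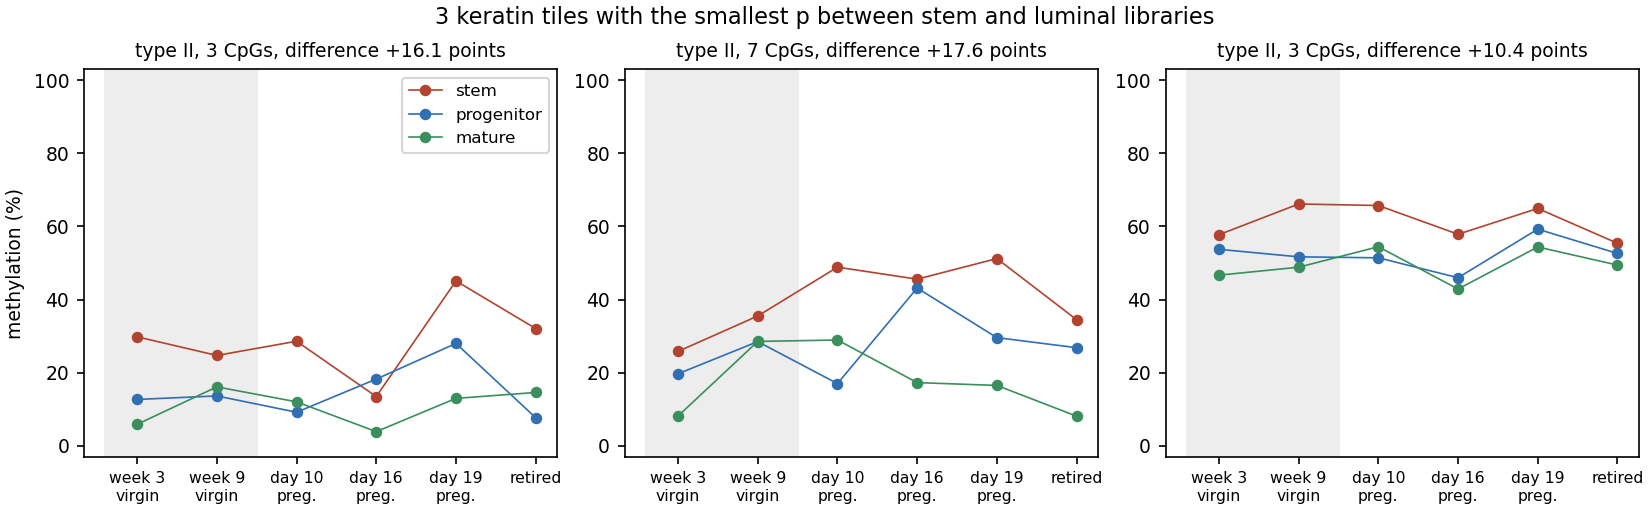
Methylation (percent, vertical axis) of the 3 keratin tiles with the smallest p between stem cells and the luminal mean, by stage (horizontal axis, virgin stages shaded); each point is 1 library and lines join libraries of a cell type for reading only. Stem points are highest in 5 of 6 stages in the left panel and in all 6 stages in the other panels, while no tile passed the adjusted threshold.

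Progenitor and mature cells had the fewest keratin tiles with a small p of the cell type pairs. The smallest p of the type I window between them was at chr11:99500001-99501000, where the progenitor minus mature difference was -6.99 points (adjusted p = 0.805). In the type II window it was at chr15:101375001-101376000, with a difference of 1.44 points (adjusted p = 0.805). Missing the threshold does not show that these cells are alike in the clusters.

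Pregnancy, which the study's title puts first, gave the only calls in the keratin windows, and both were losses in stem cells. Of the 82 tiles, 2 were called between pregnant and virgin stem cells, both lower in pregnancy and both in the type II window (2.44%), against 0.156% of all tiles (120 of 77064). Over all tiles 0.121% were called lower and 0.035% higher. At an unadjusted p under 0.05, 16 keratin tiles differed, which is 19.5% against 14.2% of all tiles. Of these 8 were higher in pregnancy (4.12% of all tiles) and 8 lower (10.1% of all tiles). In progenitor cells 0 were called and 8 had an unadjusted p under 0.05, against 0% and 3.79% of all tiles, and in mature cells 0 and 5, against 0% and 5.11%. With limma, 0 were called in the 3 cell types, and 14, 4 and 3 keratin tiles had an unadjusted p under 0.05, against 11.3%, 2.96% and 3.42% of all tiles. The median difference over keratin tiles was -0.98 points in stem cells (-0.20 over all tiles), -0.07 in progenitor cells (0 over all tiles) and -0.01 in mature cells (-0.02 over all tiles).

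**Figure D4:**
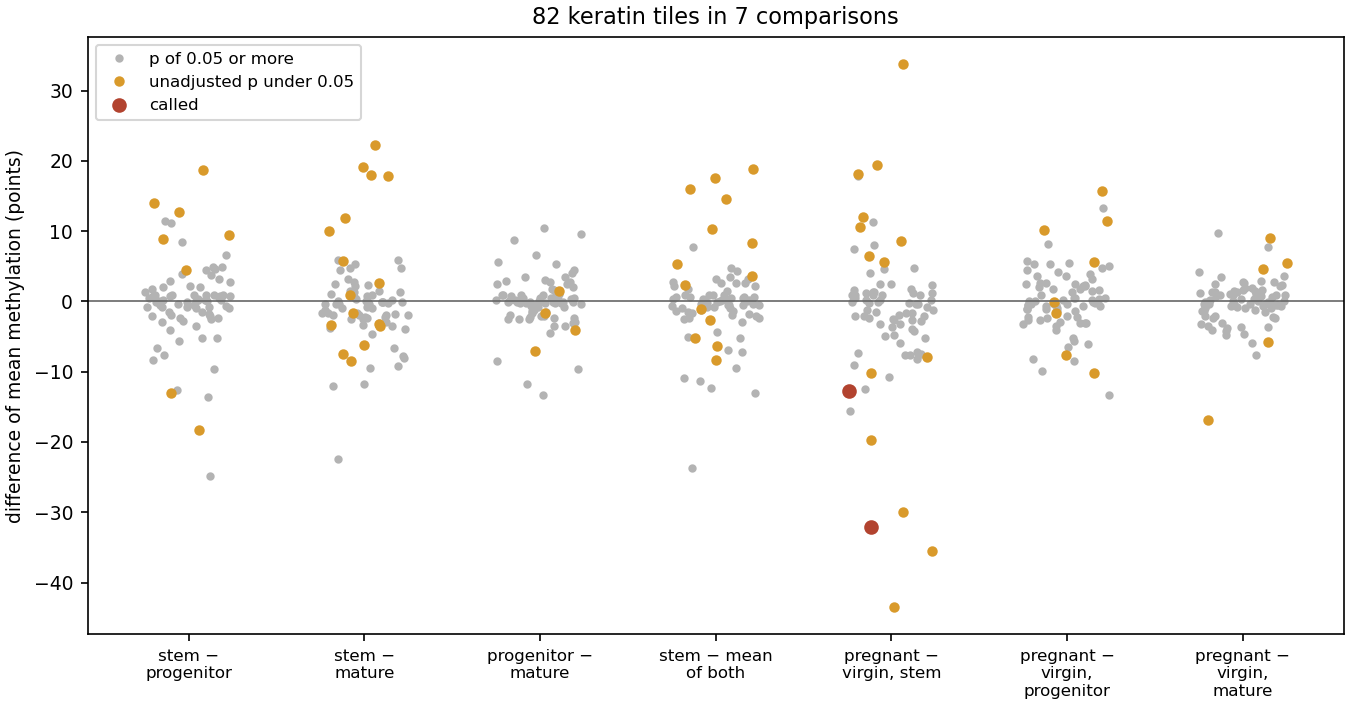
Difference of mean methylation (percentage points, vertical axis) of the 82 keratin tiles in 7 comparisons (horizontal axis, the second group subtracted from the first); each point is 1 tile, shifted sideways at random, coloured by its test. The 2 called tiles are both in the stem comparison of pregnant against virgin libraries, at -12.8 and -32.1 points.

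The larger loss was at chr15:101770001-101771000, a tile of middle methylation with 6 CpGs over 635 bases. Virgin stem libraries had 67.4% at week 3 and 74.5% at week 9. Pregnant stem libraries had 39.1%, 35.5% and 42.0% at day 10, day 16 and day 19, and the retired stem library had 43.5%. All 3 pregnant libraries and the retired library therefore lay below both virgin libraries, and also below all 12 luminal libraries, which ranged from 48.2% to 71.9%. The difference was -32.1 points (71.0% ± 5.02, n = 2, against 38.9% ± 3.23, n = 3, SD), with an adjusted p of 0.0443. The tile had 122 to 811 reads per library. In 5 of its 6 CpGs every pregnant stem library was below both virgin libraries. Virgin and pregnant means were 63.9% and 38.5% at the second, 80.5% and 43.2% at the third and 90.8% and 54.8% at the fourth. They were 70.4% and 27.2% at the fifth and 37.0% and 8.30% at the last. At the first CpG the means were 83.4% and 61.2%, with overlap. The luminal means in pregnant and virgin mice were 62.1% and 61.8% in progenitor and 64.6% and 54.8% in mature cells.

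The other call was at chr15:101269001-101270000, a tile of low methylation with 6 CpGs over 85 bases. Virgin stem libraries had 11.0% and 18.9%, and pregnant stem libraries 0.439%, 2.08% and 3.92%, with 8.48% in retired mice. The groups did not overlap, and the difference was -12.8 points (adjusted p = 0.0443). The difference sat mostly in the last pair of CpGs, with virgin and pregnant means of 43.1% and 6.22% and of 25.4% and 2.15%, while the first 4 CpGs averaged under 9% in both states. Mature cells had 5.37% and 4.60% in virgin mice, 7.47%, 9.03% and 12.1% in pregnant mice and 18.0% in retired mice, above the virgin libraries at every later stage. The difference of 4.56 points between pregnant and virgin mature cells was under the 10 points of a call (adjusted p = 0.949).

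Both calls rest on few libraries. The counts that follow are of keratin tiles only, and the share of all tiles called in each of these fits is not given here. When 1 library at a time was left out, the number of keratin tiles called in stem cells ranged from 0 to 4. It was 0 without the week 9 virgin stem, day 10 pregnant stem or day 16 pregnant stem library, without any single virgin or pregnant progenitor library, and without the day 16 pregnant mature library. Without the day 19 pregnant stem library only chr15:101269001-101270000 was called. With reads thinned to the shallowest library the differences were -36.9 and -8.67 points and neither tile was called.

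The tile with the smallest p of the type I window, chr11:100002001-100003000 with 4 CpGs over 68 bases, narrowly missed the threshold. Virgin stem libraries had 35.8% and 52.2% methylation. Pregnant stem libraries had 8.34%, 1.92% and 15.2%, and the retired stem library 7.85%. The virgin stem libraries stood alone, since the other 16 libraries lay between 1.92% and 19.1%. The difference was -35.5 points (adjusted p = 0.0516), and at each of the 4 CpGs every pregnant stem library was below both virgin ones. The first CpG had means of 59.1% in virgin and 11.1% in pregnant stem cells. This tile adjoins chr11:100001001-100002000, where stem cells stayed high in pregnancy, with 79.2%, 71.7% and 77.2% after 79.1% and 68.2% in virgin mice. It was called without the week 3 virgin stem library (-43.7 points), without either virgin mature library or the day 19 pregnant mature library (-35.5 points each).

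Further tiles with large differences in stem cells did not pass the adjusted threshold. At chr15:101632001-101633000, with 4 CpGs, virgin stem libraries had 57.8% and 53.6% and pregnant ones 21.8%, 21.9% and 33.4%, while the retired library was back at 51.6%. The difference was -30.0 points (adjusted p = 0.118). At chr15:101403001-101404000, with 3 CpGs, the virgin libraries had 73.2% and 72.8%, the pregnant ones 31.0%, 9.25% and 48.1%, and the retired library 10.0%. The difference of -43.5 points had an adjusted p of 0.304, and this tile was called when either virgin mature library was left out. A difference of 33.8 points stood at chr11:99959001-99960000, from 70.3% and 49.9% to 97.4%, 90.9% and 93.5%, with 90.2% in the retired library (adjusted p = 0.124).

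**Figure D5:**
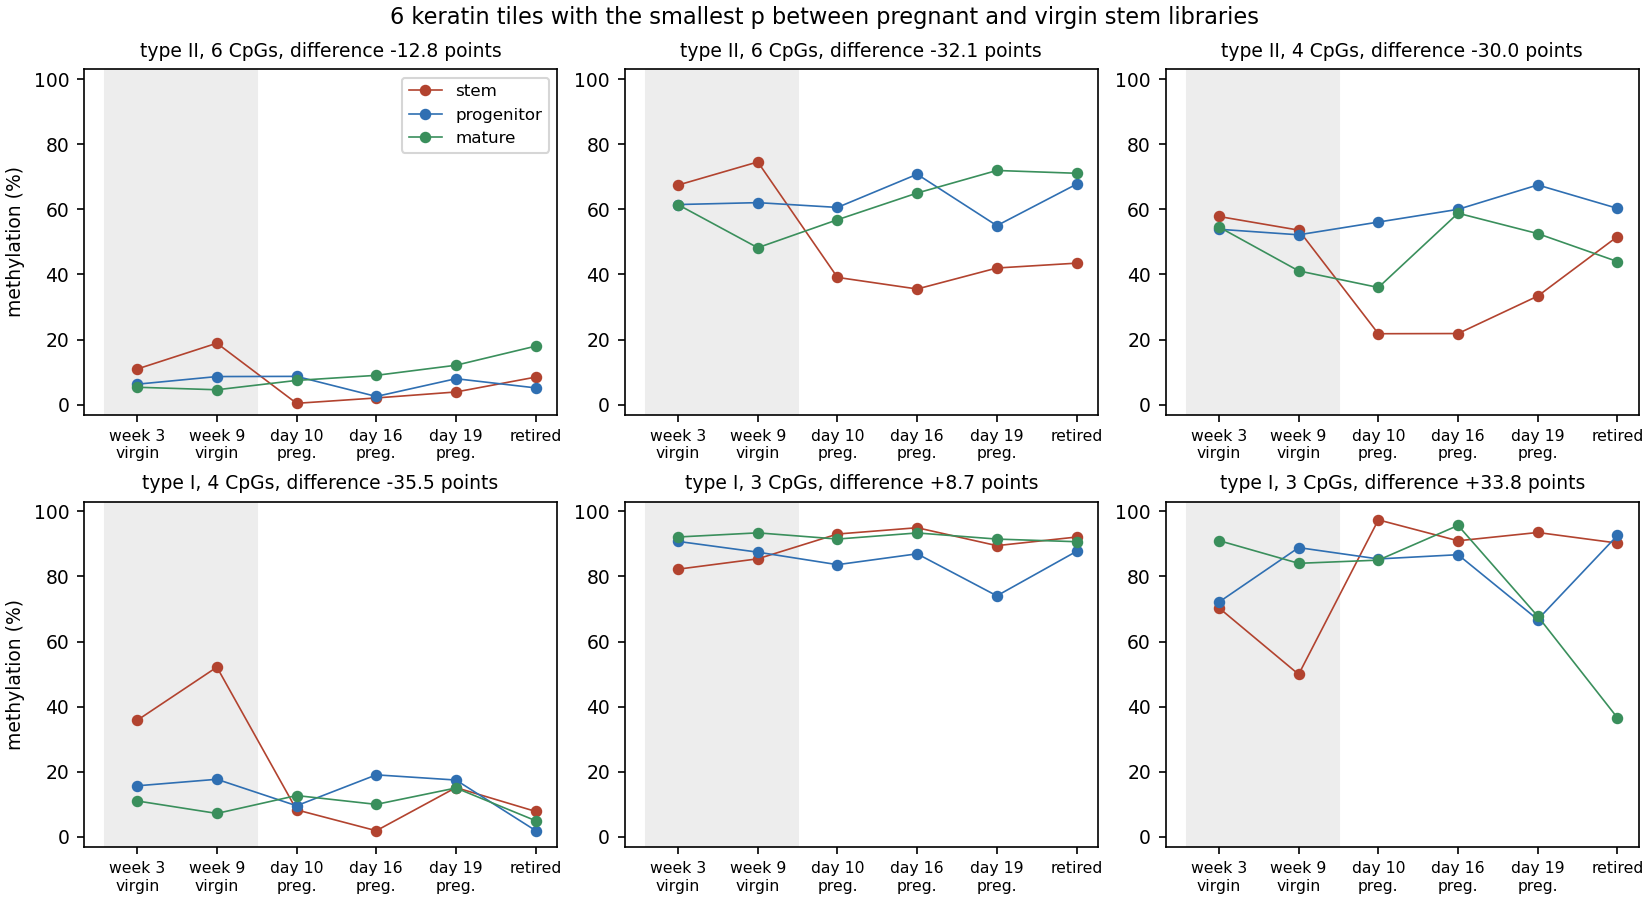
Methylation (percent, vertical axis) of the 6 keratin tiles with the smallest p between pregnant and virgin stem libraries, by stage (horizontal axis, virgin stages shaded); each point is 1 library and lines join libraries of a cell type for reading only. In the first 4 panels the stem points fall between week 9 and day 10, and the retired stem point is at 43.5% in the top middle panel and at 51.6% in the top right panel.

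At 20 of 82 keratin tiles (24.4%) every pregnant stem library was below both virgin libraries, against 18.4% of all tiles. At 8 (9.76%) every pregnant library was above, against 8.27% of all tiles.

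Whether the pregnant minus virgin difference was unlike between stem and luminal cells was tested with the difference of the differences, an added test. No keratin tile was called, against 0% of all tiles. An unadjusted p under 0.05 was found at 14 of 82 for stem against progenitor cells (10.4% of all tiles), 10 for stem against mature cells (11.3%) and 8 for progenitor against mature cells (4.66%). At chr15:101770001-101771000 the stem change minus the progenitor change was -32.5 points (adjusted p = 0.207), and minus the mature change -41.9 points (adjusted p = 0.0975). At chr15:101269001-101270000 the differences were -11.7 (adjusted p = 0.230) and -17.3 points (adjusted p = 0.0817). At chr11:100002001-100003000 they were -34.2 (adjusted p = 0.283) and -39.0 points (adjusted p = 0.174). With stage as a block, also added, 0 keratin tiles were again called, against 0% of all tiles, and 15, 11 and 8 had an unadjusted p under 0.05 (11.1%, 11.7% and 5% of all tiles). In that fit the adjusted p was 0.193 and 0.139 at chr15:101770001-101771000, and 0.197 and 0.108 at chr15:101269001-101270000. The losses called in stem cells were therefore not shown to differ from the luminal changes. Depth also differed between states, with a median of 48 to 62 reads per CpG in virgin and 22 to 44 in pregnant stem libraries. Its part in the differences was not tested.

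In progenitor and mature cells the tiles with the smallest p were far from the adjusted threshold. Progenitor cells differed by -10.3 points at chr15:101197001-101198000 (adjusted p = 1.0) and by 10.2 points at chr11:99199001-99200000 (adjusted p = 1.0). Mature cells differed by 9.00 points at chr15:101829001-101830000 and by -16.9 points at chr11:98995001-98996000, both with an adjusted p of 0.949. The remaining tile with a wide range, chr11:100116001-100117000, spanned 30.0% in the retired stem library to 89.3% in the day 19 pregnant mature library and had an unadjusted p of 0.05 or more in all 7 comparisons.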

How the data were processed

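The deposited files list, per CpG, methylated over total reads as text, on mm9 per the submitters' processing notes; the aligner, the caller and any filters were not given in the sources used here. The score that the authors deposited in 7 files equals 1000 times the methylated share within rounding and was used only for that check. These 7 are the day 16 progenitor, day 19 and retired libraries. CpGs with 5 reads in all 18 libraries were summed in tiles of 1000 bp with 3 or more CpGs. Each tile was fitted by quasi-binomial regression over all libraries, its dispersion squeezed toward a common prior (limma's squeezeVar) and floored at 1. F tests were adjusted by Benjamini-Hochberg over 77064 tiles. Cell types were compared with stage as a block, pregnancy in a model of 9 groups. Levels are means over CpGs. Windows, gene lists and members were chosen with earlier results of these data known. Named tiles are, per window, those called, the smallest p of each comparison, the 3 widest ranges and the 5 with most CpGs. Alternatives included 10 reads, tiles of 500 bp, 1 CpG per tile, 20 points, thinned reads, limma 3.58.1 (R 4.3.3) and leaving out each library. The interaction test (also with stage as a block), levels from pooled reads and a prior fitted without tiles of zero dispersion were added after seeing the data. Scripts used Python 3.11.15, numpy 2.4.6, scipy 1.17.1 and pandas 2.3.3, and the test was tried on simulated counts.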

Additional observations from a re-analysis of the deposited data

Results flagged for a closer look

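In 5 of 81 groups of 6 libraries, 1 library stood far from the rest. The rule used flags about 1 in 20 groups when groups are independent and normally distributed. These groups share libraries, some tiles were picked by range or small p, and some lie near 0%. That rate is therefore a rough mark only. The retired mature library was the highest of its cell type in the type II window mean (60.98%, the others 59.6% to 59.97%), at chr15:101486001-101487000 (97.2%, the others 88.1% to 90.6%) and at chr15:101833001-101834000 (5.95%, the others 0.226% to 2.02%); it was also the shallowest library, with a median of 15 reads per CpG in the type II window, and the part of depth was not tested. The day 16 pregnant progenitor library had 2.01% at chr11:99092001-99093000, where the other progenitor libraries had 0% to 0.385%. The week 9 virgin stem library had 74.7% at chr15:101829001-101830000, the others 90.1% to 96.8%.

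In 5 cases pregnancy separated the libraries without overlap in a pair of cell types, upward in one and downward in the other. The share of all tiles with such a pattern was not counted. The tiles listed here are among the named ones, picked partly by small p or wide range, so the 5 cases are a description only. For stem against progenitor cells these were the type II window mean, with a difference of changes of -2.30 points (-1.75 in stem and 0.549 in progenitor cells, the difference not tested), chr11:99500001-99501000 with 16.2 points (8.66 and -7.57), chr15:101197001-101198000 with 28.4 points (18.2 and -10.3) and chr15:101632001-101633000 with -38.2 points (-30.0 and 8.16). For stem against mature cells it was chr15:101269001-101270000 with -17.3 points (-12.8 and 4.56). The added test of the difference called none of these 4 tiles, with adjusted p of 0.219, 0.217, 0.272 and 0.0817 in that order, and of 0.143, 0.163, 0.164 and 0.108 with stage as a block.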

How the results depend on the processing

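The 2 calls in pregnant against virgin stem cells became 1 with a minimum of 10 reads (35 keratin tiles left) or a difference of 20 points, and 0 with tiles of 500 bp, at least 1 CpG per tile, reads thinned to the shallowest library, or limma. They became 3 with any CpG of 5 reads and 3 under a prior fitted without tiles of zero dispersion, which called 373 tiles in the data set instead of 120. With limma 0 of all 77064 tiles were called in this comparison. For the other settings and for leaving out a library, the share of all tiles called is not given here. Those counts therefore describe the keratin tiles only. Leaving out 1 library gave 0 to 4 calls, with 3 without the week 3 virgin stem or day 19 pregnant mature library and 4 without either virgin mature library; the cause was not tested. For stem against mature cells and for stem cells against the luminal mean the range was 0 to 2, the 2 without the week 9 virgin mature library. The tile chr15:101269001-101270000 stayed on its side of the threshold in 13 of 25 alternatives and chr15:101770001-101771000 in 11 of 25. These counts include leaving out each retired library, which forms a group alone in the pregnancy model. The adjusted p of both tiles then stayed at 0.0443, so those agreements were fixed in advance. None of the 668 alternative differences for 29 results reversed, though part of them could not move. Leaving out a library outside the compared groups leaves a difference as it was. Without the retired stem library, for example, the pregnancy differences of these tiles in stem cells stayed at -12.8 and -32.1 points. Without the stage as replicate block, cell type comparisons called 0 keratin tiles, as with it, and the test of stem against luminal changes with pregnancy called 0 with and without that block. No paired analysis was possible for pregnancy within a cell type because virgin and pregnant libraries share no stage or animal number. In 6 cases a difference of window means moved by 1 SD or more. A group reduced to a lone library borrowed its spread from the rest. Stages stand in for replicates, so stage and state cannot be told apart at single time points, and differences under 10 points could not be called at any depth.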
